A study of Homo sapiens with 36 samples.

Results

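The loci described here are the 997 of 1433 assembled loci (69.6%) chosen by 1 measured difference, a mean level that was higher in the cytoplasm than on the chromatin of untreated control HCT116 cells, a human colon carcinoma line. An assembled locus is a row of the deposited tables that has only a locus number (XLOC) in place of a gene. The level of a locus in a library is its CPM, the count scaled to a common library total, the scale used for the rule. The means of 3 cytoplasm and 3 chromatin total RNA libraries of untreated TIR1 control cells chose the members, so values from those 6 libraries are given as a description and support nothing.

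The RNA exosome is a complex that degrades RNA from its end, and DIS3 is the ribonuclease subunit that gives the nuclear complex most of its activity. Its known substrates include promoter upstream transcripts, enhancer RNAs and prematurely terminated transcripts, most of which are short-lived, made outside annotated genes and found in the nucleus. RNA polymerase III makes tRNA, the RNase P and RNase MRP RNAs, the signal recognition particle RNA and 7SK RNA, which are stable and mostly carry no polyA tail. In this series the HCT116 cells expressed the plant auxin receptor TIR1, and a CRISPR clone of them also carried DIS3 fused to an auxin-inducible degron (AID), so that auxin directs the DIS3 protein to degradation.

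Total RNA was measured in cytoplasm and on chromatin and polyA RNA in cytoplasm, and each of these 3 data sets held 12 libraries in 4 groups of 3. The groups were untreated TIR1 control cells, TIR1 control cells given 500 uM auxin for 1 h, untreated DIS3-AID cells and DIS3-AID cells given the same auxin. All 4 groups expressed TIR1, and the DIS3-AID cells were 1 clone. Cytoplasm triplicates are described as technical in the labels, and every p-value therefore reflects how much the libraries of a group vary, not separate cultures.

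Library totals, in units of 1e6 counts, ran from 59.5 to 123 in cytoplasm total RNA, from 50.3 to 139 on chromatin and from 25.9 to 33.1 in polyA RNA. The fraction labels held in the untreated control cells, where 10 of 10 abundant mRNAs were higher in the cytoplasm. Of 8 lncRNAs listed as retained on chromatin, 1 was, OIP5-AS1 (163 CPM in cytoplasm and 49.7 CPM on chromatin). MEG3 (0.00648 and 0.0127 CPM) and SNHG14 (0.0468 and 0.0740 CPM) of that list were near 0 in both fractions and say little about the labels. Summed markers of a colon epithelial line lay between 317 and 3525 CPM over all 36 libraries, those of fibroblasts between 9.47 and 18.5 CPM and those of blood cells between 0.173 and 0.636 CPM. The sums rest on few genes. In untreated control cytoplasm KRT8 had 1470 of 2868 colon CPM, while VIL1 (0.0264 CPM) and CDX1 (0.00596 CPM) of that list were near 0. COL1A1 had 11.0 of 11.2 fibroblast CPM there. The DIS3 gene itself had a mean of 88.0 CPM in untreated control cytoplasm and 49.5 CPM in untreated DIS3-AID cytoplasm, and its log2 change with auxin in DIS3-AID cytoplasm was -0.13 (adjusted p = 0.0637, edgeR). The degron acts on the protein, so these counts do not check the depletion. In a list of 15 genes of exosome subunits and related factors, EXOSC6 rose and EXOSC1 fell with auxin in the cytoplasm of DIS3-AID cells. Of all features tested there, 21.1% were higher and 13.2% lower. On chromatin only DIS3L2 of this list passed, and it rose, where 11.0% of all features were higher. None of 13 tested passed in polyA RNA (median log2 change -0.01).

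The files give no coordinates for these loci. Their rows stand among annotated genes, however, and all 54983 neighbouring pairs of rows matched to GENCODE 29 on 1 chromosome were in order of gene start. Each locus is therefore placed between the starts of the annotated rows above and below it, on hg38, and its strand, end and length are not known here. For the 997 members that interval had a median of 45126 bases, and 143 of them (14.3%) had an interval wholly within the span of 1 annotated gene, against 37 of the 436 other assembled loci (8.49%). A locus that overlaps an annotated gene may share its reads.

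Most members were scarce. The median mean level in untreated control cytoplasm was 0.383 CPM (quartiles 0.191 and 0.855), 790 were below 1 CPM and 9 reached 10 CPM. The median ratio of cytoplasm to chromatin was 3.66, with 735 members at a ratio of 2 or more and 26 below 1.1. For 827 members the lowest of the 3 cytoplasm libraries was above the highest of the 3 chromatin libraries. The 3 members just inside the rule, XLOC_007509, XLOC_010337 and XLOC_013952, had ratios of 1.00, 1.00 and 1.01, and the 3 loci just outside it, XLOC_012426, XLOC_013159 and XLOC_009696, had ratios of 0.992, 0.999 and 0.999. The split at this threshold is therefore a cut through a continuous range.

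The position of the members held in groups that did not choose them. In auxin-treated control cells 948 of the 997 had a higher mean CPM in cytoplasm than on chromatin, in untreated DIS3-AID cells 971 had, and in auxin-treated DIS3-AID cells 990 had. The same counts for the 436 other assembled loci were 33, 74 and 313. In a joint edgeR fit of both fractions, scaled by the trimmed mean of M values (TMM), 945 members were lower on chromatin and none higher in auxin-treated control cells at an adjusted p below 0.05 (947 at an unadjusted p below that value, and 930 lower and 0 higher by DESeq2). Of all features tested 43.2% were lower, 46.1% higher and 89.5% past the unadjusted threshold. The counts were 969 lower and 0 higher in untreated DIS3-AID cells (969 at an unadjusted p below 0.05 and 966 and 0 by DESeq2, with backgrounds of 43.2% lower, 46.2% higher and 89.6% unadjusted) and 989 lower and 1 higher in auxin-treated DIS3-AID cells (backgrounds 44.9% and 45.2%). The median log2 difference, chromatin minus cytoplasm, was -2.37, -2.70 and -3.68 in these groups, beside 0.13, 0.14 and 0.05 over all features. Scaling by library totals alone shifted the median of all features to 0.80, 0.82 and 0.40 and those of the members to -1.73, -2.03 and -3.33, and then 789, 877 and 980 members were lower and 6, 5 and 2 higher. In bulk libraries, fewer cells that hold an RNA and less of it per cell cannot be told apart.

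**Figure D1:**
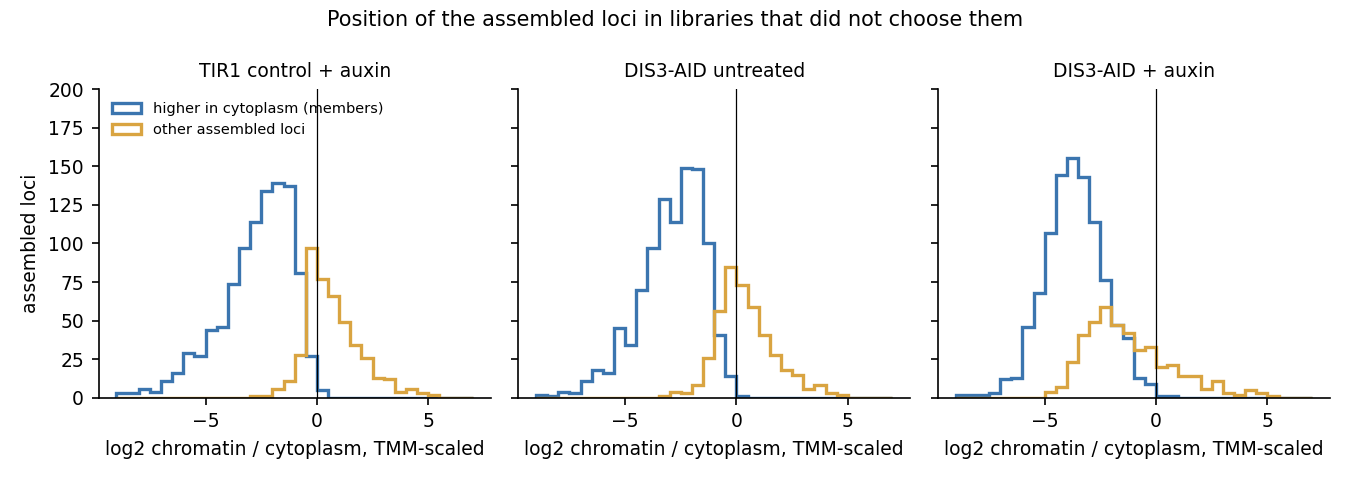
Number of assembled loci (vertical axis) by log2 difference of chromatin over cytoplasm from the joint edgeR fit (horizontal axis), for the 997 members and the 436 other loci in the 3 groups that did not choose the members. The members lie left of 0 with medians of -2.37, -2.70 and -3.68, and 33, 74 and 313 of the 436 other loci were higher in cytoplasm by mean CPM.

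The 1 member that was higher on chromatin in auxin-treated DIS3-AID cells was XLOC_000663, on chromosome 1 between the starts of AL592078.1 and KCNN3 (chr1:154579065-154697455), with ADAR, an RNA editing enzyme, as the nearest gene row above. Its level in untreated DIS3-AID cells was 1.31, 1.11 and 1.24 CPM in cytoplasm and 1.05, 1.13 and 0.915 CPM on chromatin. With auxin it was 1.05, 0.791 and 0.949 CPM in cytoplasm and 1.25, 1.69 and 2.35 CPM on chromatin. The fractions overlapped before auxin, where 1 chromatin library was above 1 cytoplasm library, and with auxin all 3 chromatin libraries were above all 3 cytoplasm libraries. The difference, chromatin minus cytoplasm, was a log2 of -0.92 before auxin (SE 0.173, adjusted p = 7.11e-06) and 0.53 with it (SE 0.172, adjusted p = 0.00490), and the call with auxin was lost without replicate 3 of the auxin-treated DIS3-AID chromatin, which left 0 members higher.

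With auxin, most members rose in the cytoplasm of DIS3-AID cells. Of the 997 members tested, 732 rose and 11 fell at an adjusted p below 0.05 in edgeR, where 21.1% of all 23027 features tested were higher and 13.2% lower. A total of 645 members rose at least 2-fold and none fell as far. The median log2 change of the members was 2.49, beside -0.05 over all features and 2.81 in the other assembled loci, of which 390 of 436 rose and 1 fell. The groups did not overlap for 778 members that were higher with auxin (29.5% of all features) and for 9 that were lower (5.91%). Of the members, 50 passed the filter on low counts only through the auxin-treated DIS3-AID libraries and had to differ, and the other 947 held 682 that rose and the 11 that fell. The libraries from which the loci were assembled are not given in the sources used here. If they include these, the direction of the members is not independent evidence.

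On chromatin and in polyA RNA fewer members could be tested. On chromatin 577 members passed the filter, of which 379 rose and none fell (436 at an unadjusted p below 0.05, and 0 fell in edgeR without any 1 library of the 2 groups), where 11.0% of features were higher, 9.54% lower and 32.4% past the unadjusted threshold. The median log2 change there was 1.14, beside 0.00 over all features and 0.61 in the other loci. In polyA RNA 463 members passed, of which 261 rose and 3 fell, where 13.2% of features were higher and 3.88% lower. Of these 463, 194 passed only through the auxin-treated DIS3-AID libraries, and among the other 269 there were 80 that rose and 3 that fell, with a median log2 change of 0.19. On chromatin 137 of the 577 passed only in that way, and the other 440 held 280 that rose. The treated and untreated libraries did not overlap for 398 members higher and 3 lower on chromatin (13.9% and 22.4% of all features) and for 295 higher and 15 lower in polyA RNA (22.1% and 6.06%).

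**Figure D2:**
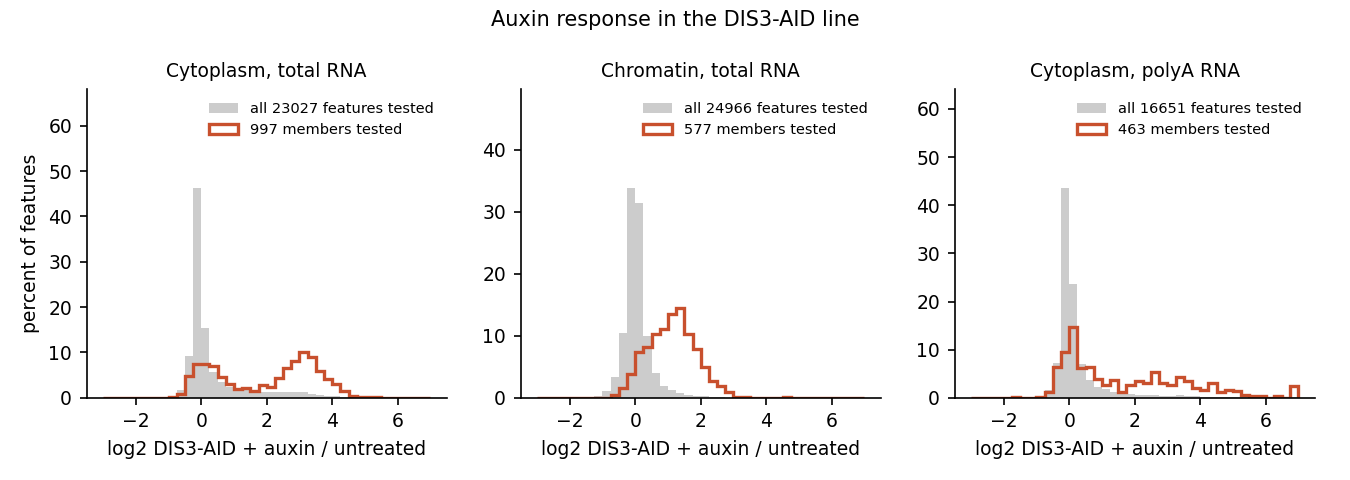
Percent of features (vertical axis) by log2 change with auxin in DIS3-AID cells (horizontal axis) in the 3 data sets, with all features tested in grey and the members tested as a line, the outermost bins holding all larger changes. The members form 2 groups in cytoplasm total RNA, one near 0 and one near 3, and a single broad peak on chromatin with a median of 1.14.

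The summed level of the members is dominated by 1 of them. XLOC_011776, on chromosome 6 between the starts of AL513475.2 and EPM2A (chr6:144708106-145382535), held 37.8% of their summed CPM in untreated control cytoplasm. Without it, the other 996 members together had 1102 ± 14.7 CPM (SD, n = 3) in untreated DIS3-AID cytoplasm and 3892 ± 95.9 CPM with auxin, a ratio of 3.53. On chromatin the sums were 339 ± 26.4 and 577 ± 19.4 CPM (ratio 1.70), and in polyA RNA 1008 ± 4.88 and 1579 ± 57.6 CPM (ratio 1.57). In each data set the 3 auxin-treated DIS3-AID libraries were above all 9 others. The control cells had sums of 993 ± 33.2 CPM untreated and 959 ± 6.69 CPM with auxin in cytoplasm, and 952 ± 24.2 and 969 ± 17.1 CPM in polyA RNA.

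**Figure D3:**
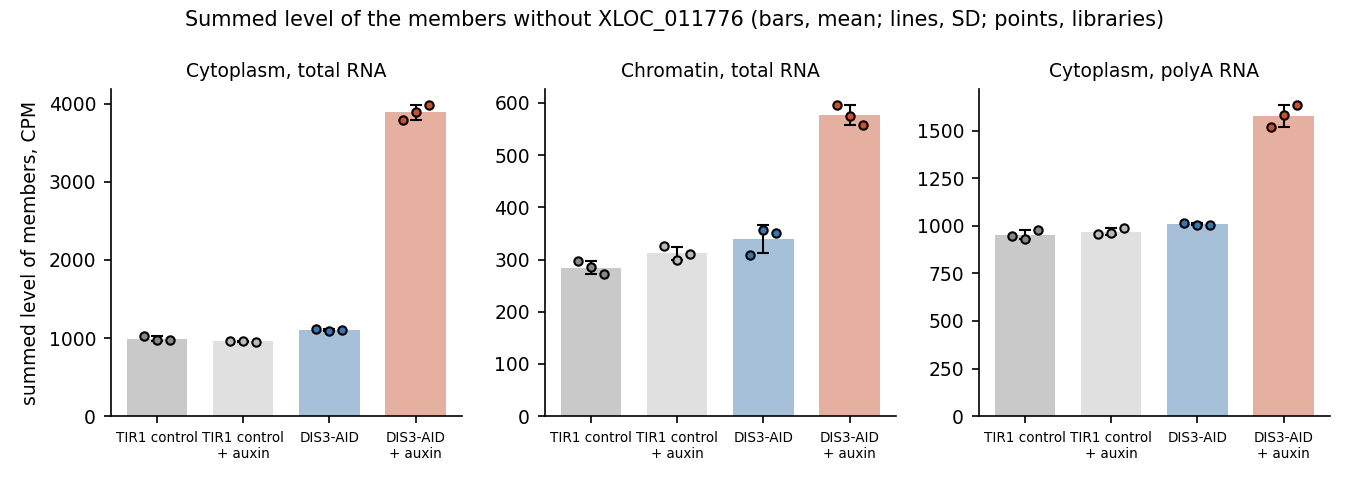
Summed level of the members without XLOC_011776 in CPM (vertical axis) in the 4 groups of each data set, with bars for the mean, lines for the SD and points for the 3 libraries. The auxin-treated DIS3-AID bar is the highest in each panel, at 3892, 577 and 1579 CPM.

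Auxin alone, in the control cells, was tested in polyA RNA, the data set that the rule did not use. In polyA RNA none of the 463 members rose or fell in edgeR (26 at an unadjusted p below 0.05, and 1 higher by DESeq2), where 0.0480% of all features were called and 5.23% passed unadjusted. The median log2 change of the members was 0.06. Of the 463, 194 passed the filter only through the auxin-treated DIS3-AID libraries. These had too few counts in control cells to pass there and could hardly be called. Among the other 269 members 0 rose and 0 fell, 19 were at an unadjusted p below 0.05 in edgeR, and the median log2 change was 0.0195. In the total RNA sets this comparison holds libraries that chose the members, and the median log2 change, given as a description, was -0.04 in cytoplasm and 0.11 on chromatin. Untreated DIS3-AID cells against untreated control cells, likewise a description, had a median of 0.23 in cytoplasm, 0.14 on chromatin and 0.14 in polyA RNA.

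Between the lines, both given auxin, 769 members were higher in DIS3-AID cells and 27 lower in cytoplasm (28.3% and 28.6% of all features). On chromatin 398 were higher and 3 lower (18.9% and 20.4% of all features), and in polyA RNA 275 were higher and 23 lower (22.0% and 15.9%). The members' median log2 differences were 2.83, 1.13 and 1.30, beside 3.16, 0.63 and 1.95 in the other assembled loci. Without the members that passed the filter only through the auxin-treated DIS3-AID libraries, 719 of 947 were higher and 27 lower in cytoplasm (median 2.72), 299 of 440 and 3 on chromatin (median 1.00), and 94 of 269 and 23 in polyA RNA (median 0.20). This comparison shares the auxin-treated DIS3-AID libraries with the one above, so the pair of comparisons is not independent.

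The members that rose furthest in the cytoplasm were near the floor of detection before auxin. XLOC_010095, on chromosome 3 between the starts of RNU6ATAC15P and RPSAP29 (chr3:110551845-110682286), had 0.0454, 0.0716 and 0.0659 CPM in untreated DIS3-AID cytoplasm and between 2.44 and 3.47 CPM in the 3 libraries with auxin. All 3 treated libraries were far above the untreated ones, and the log2 change was 5.48 (SE 0.264, adjusted p = 4.18e-12). On chromatin the same locus had 0.0449, 0.0285 and 0.0169 CPM and then 0.138, 0.0372 and 0.169 CPM, where the groups overlapped. In polyA RNA it was at 0 in the 9 libraries of the other groups and at 0.108, 0.153 and 0.0751 CPM in the auxin-treated DIS3-AID cells, at least 3.11-fold higher than the level that 3 counts over the untreated group would give.

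XLOC_010678, on chromosome 4 between ANXA3, an annexin, and RF00019 (chr4:78551519-78632273), was higher with auxin in DIS3-AID cytoplasm but passed the filter there only through the treated libraries, so its values are a description. In that cytoplasm it went from 0.0568, 0.0358 and 0.0923 CPM to 2.19, 2.29 and 2.12 CPM, a log2 change of 5.05 (SE 0.271). On chromatin it had 0.0337, 0.0570 and 0.0169 CPM before and 0.0415, 0.0186 and 0.0169 CPM with auxin, and those groups overlapped. A count of 0 in all 3 untreated polyA libraries of this line allows a level of up to 0.0360 CPM, and with auxin 1 of 3 libraries had a count.

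The other 4 members named for their rise in cytoplasm likewise passed the filter only through the auxin-treated DIS3-AID libraries and had to differ, so their values are given with no test. XLOC_013263, between RNU6-1324P and MYBL1, was higher by a log2 of 5.07 (SE 0.257), XLOC_009486, within the span of ATXN10, by 4.97 (SE 0.251), and XLOC_000737, in the row before PRDX6, a peroxiredoxin gene, by 4.74 (SE 0.233). XLOC_002048, within the span of AC022387.1, had only 3 counts in untreated DIS3-AID cytoplasm, so its difference is given as a ratio of CPM, 47.7 (95% interval 16.0 to 234, counting error only). Treated and untreated libraries did not overlap for any of these 4.

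The 4 members named for their rise on chromatin were other loci. All 4 passed the chromatin filter only through the auxin-treated DIS3-AID libraries, so their chromatin values are a description with no test. XLOC_003741, on chromosome 12 between WDR66 and AC069503.1 (chr12:121917862-122007434), had 0.0337, 0 and 0.0508 CPM on untreated DIS3-AID chromatin and 0.263, 0.391 and 0.271 CPM with auxin, a log2 change of 3.44 (SE 0.533). In cytoplasm it went from 1.26, 1.75 and 1.38 CPM to 4.70, 4.96 and 3.97 CPM, a log2 change of 1.53 (SE 0.129). In untreated control cells the same locus had a mean of 0.684 CPM in cytoplasm and 0.00619 CPM on chromatin, and all 3 libraries of each treated DIS3-AID group were above every control library of that fraction. XLOC_009378, between Z93930.1 and ZNRF3, was higher by a log2 of 3.10 on chromatin (SE 0.358), and XLOC_002273, between RPL23AP65 and AC011979.2, by 2.86 (SE 0.327). XLOC_006642, between LINC01900 and AC091043.1, went from 0, 0.0142 and 0.0169 CPM to 0.208, 0.223 and 0.305 CPM, a ratio of 26.5 (95% interval 6.93 to 226, counting error only).

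In polyA RNA the members named for their rise were at 0 in all 3 untreated DIS3-AID libraries, and passed the filter there only through the treated ones, so only a lower bound can be given, with no test. XLOC_008020, on chromosome 2 between RNU6ATAC19P and AC009962.1 (chr2:181738606-181887851), had 1.45, 1.73 and 1.46 polyA CPM with auxin, at least 42.9-fold above the level of 3 counts over the untreated group. The polyA libraries of the control cells held between 0 and 0.0639 CPM of it. In cytoplasm total RNA the locus went from 1.20, 1.12 and 0.936 CPM to 22.9, 22.6 and 20.6 CPM, a log2 change of 4.24 (SE 0.102, adjusted p = 9.57e-16), and on chromatin from 0.415, 0.427 and 0.661 CPM to 1.13, 1.21 and 1.22 CPM. Its treated and untreated DIS3-AID libraries did not overlap in any of the 3 data sets. XLOC_003069, XLOC_014063 and XLOC_002186 were at least 30.1, 24.6 and 20.8-fold higher in polyA RNA by the same bound.

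**Figure D4:**
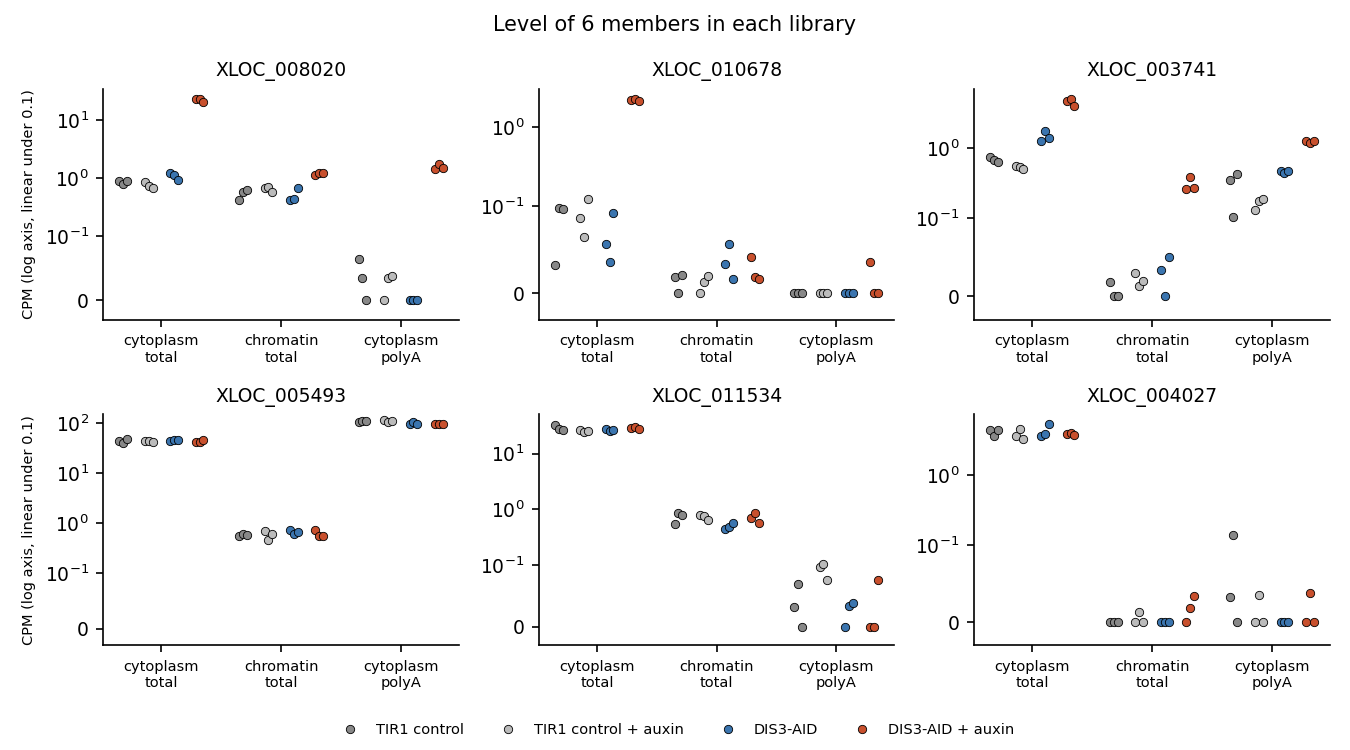
Level in CPM (vertical axis, log scale and linear below 0.1) of 6 members in each of the 36 libraries, by data set and group. The auxin-treated DIS3-AID libraries of XLOC_008020 lie above the untreated ones in all 3 data sets and those of XLOC_010678 in cytoplasm total RNA, and XLOC_005493, XLOC_011534 and XLOC_004027 did not pass the test in cytoplasm.

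The falls were small and few, and their calls depended on the setting. Among the 11 members that fell in cytoplasm, the 6 named by the rule had log2 changes between -0.59 and -0.39. XLOC_008601, within the span of PTMA, the prothymosin alpha gene (chr2:231711525-231713314), went from 1.37, 1.74 and 1.23 CPM to 1.12, 1.16 and 0.962 CPM, a log2 change of -0.53 (SE 0.156, adjusted p = 0.0140). Its call was lost without untreated DIS3-AID replicate 2 or auxin-treated replicate 3, and a locus within PTMA may share reads with that abundant mRNA. XLOC_011517, between HMGN4 and ABT1, fell by 0.59 (adjusted p = 0.0170), and XLOC_000663 by 0.47 (adjusted p = 0.0141). Their calls were lost under 5 and 4 of 12 alternatives, scaling by library totals and single libraries left out. The calls of XLOC_010796 (log2 -0.54), XLOC_006232 (-0.44) and XLOC_004709 (-0.39) were lost under 9 of 12 alternatives each. With any 1 of the 6 libraries left out, between 3 and 11 members fell, and with library totals in place of TMM 2 did.

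The 3 falls in polyA RNA were of members that did not pass the test in cytoplasm total RNA. XLOC_012201, with ACTB, the beta-actin gene, as the nearest row above (chr7:5495819-5556731), had 4.83, 4.73 and 4.64 polyA CPM before auxin and 3.47, 3.72 and 3.60 CPM with it, a log2 change of -0.44 (SE 0.137, adjusted p = 0.0210). Its total RNA values in the same cytoplasm were 0.954, 1.17 and 1.11 CPM and then 0.765, 1.14 and 1.19 CPM, which overlapped. XLOC_006769, within the span of EEF2, a translation elongation factor gene, had a log2 change of -0.37 (adjusted p = 0.0479), and XLOC_004665, in the row before ADAMTS7, one of -0.65 (adjusted p = 0.0380). Without auxin-treated polyA replicate 1 none of the 3 passed, and with other libraries left out between 1 and 4 members fell. The calls of XLOC_004665, XLOC_006769 and XLOC_012201 were lost under 9, 7 and 1 of 12 alternatives.

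Most members called on chromatin or in polyA RNA were also called in cytoplasm total RNA. Of the 334 members tested in all 3, 196 rose in all 3. The same share over all features was not computed, so this count has no background. Of the members that rose on chromatin, 93.9% also rose in cytoplasm, and 48.6% of those that rose in cytoplasm also rose on chromatin. Of the members that rose in polyA RNA, 99.2% also rose in cytoplasm total RNA, and 35.4% of those that rose in cytoplasm total RNA rose in polyA RNA. A further 278 members that rose in cytoplasm could not be tested on chromatin and 423 could not be tested in polyA RNA, so the lower shares count untested members as not called. Across members the log2 changes had a Spearman rho of 0.54 between cytoplasm and chromatin (577 loci) and 0.89 between total and polyA RNA (463 loci). Of all 997 members, 73.4% rose in cytoplasm. Among the rises, 99 on chromatin and 181 in polyA RNA were of members that passed the filter there only through the auxin-treated DIS3-AID libraries. The filter favoured a rise of such members, and they are part of the counts, shares and correlations above. How many of them are among the 196 was not counted. These are descriptions over loci that share the same libraries, and loci are not replicates.

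The response to auxin was compared between the fractions. The difference between the 2 responses of DIS3-AID cells, chromatin minus cytoplasm, was negative for 370 members and positive for 64 at an adjusted p below 0.05 in edgeR, where 11.0% of all features were negative and 22.1% positive. The members' median difference was -0.84 on the log2 scale, beside 0.16 over all features and -1.83 in the other assembled loci. Of those 436 other loci, 344 were negative and 14 positive, so a negative difference is not particular to the members. The member counts include loci that passed the filter of 1 data set only through the auxin-treated DIS3-AID libraries. With library totals alone the medians were -1.16 and -0.17, and 415 members were negative and 14 positive, while of all calls 6.42% were positive in place of 66.6%. The members lay about as far below all features on both scales. Without replicate 1 of the untreated DIS3-AID chromatin, 36 members were positive.

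XLOC_002317, on chromosome 11 between MIR1343 and AL356215.1 (chr11:34941837-35132655), rose in cytoplasm from 0.125, 0.167 and 0.119 CPM to 3.03, 2.91 and 3.15 CPM and had 0.123, 0.271 and 0.237 CPM and then 0.332, 0.205 and 0.355 CPM on chromatin. The difference of the log2 changes was -3.56 (SE 0.441, adjusted p = 4.47e-08). The values for XLOC_010678 and XLOC_013263, which passed the cytoplasm filter only through the treated libraries, were -5.24 and -3.92. Among the positive ones, XLOC_003741 had a difference of 2.08 (SE 0.551). It passed the chromatin filter only through the treated libraries, so this value is a description with no test. XLOC_010268, within the span of TPRG1, and XLOC_010847, in the row after UGT3A2, had 2 and 3 counts on untreated DIS3-AID chromatin, and ratios there of 6.49 (95% interval 1.42 to 60.2) and 6.29 (95% interval 1.80 to 33.7).

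Between polyA and total RNA a difference of the responses was called for few members. Of the 997 members in this joint fit, 534 did not pass the filter of the polyA set by itself. In all 12 polyA libraries 22 members were at 0. Most members could thus hardly be called, and the low count does not show that the responses were alike. The difference, polyA minus total, was positive for 25 members and negative for 46 (5.29% and 3.0% of all features), with a median of 0.14 beside 0.16 over all features. With the total and polyA library of 1 group and number as a block, 54 were positive and 51 negative. Other settings gave between 6 and 39 positive members with 1 library left out, and 12 with library totals. XLOC_002317 rose in total RNA as above and had 0.0355, 0.170 and 0.0773 polyA CPM before auxin and 0.0362, 0.115 and 0.113 CPM with it, a difference of -4.40 (SE 0.952, adjusted p = 0.00425). Without untreated DIS3-AID polyA replicate 2 that call was lost. The locus held 8 polyA counts before auxin and 7 with it. Like XLOC_009556 and XLOC_012101, it did not pass the filter of the polyA set by itself. XLOC_009556, within the span of TBC1D5, and XLOC_012101, with TRMT11, a tRNA methyltransferase subunit gene, as the row below, each had a difference of -2.55 (adjusted p = 0.0155 and 0.0342). The positive members named, XLOC_008020, XLOC_012239 and XLOC_012566, were at 0 in untreated polyA libraries, where a fitted difference is no bound.

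In cytoplasm total RNA the members fell into 2 groups by size of response. A log2 change of 2 or more was seen for 562 members (56.4%), one below 0.5 for 276 (27.7%), and 159 lay between. In bins of 0.5 the counts peaked from 3 to 3.5 with 191 members and again from 0 to 0.5 with 145, with 40 from 1 to 1.5. These limits were chosen after the values were seen, and the values below describe the bands with no test. The median level in auxin-treated control cytoplasm was 0.749 CPM in the low band, 0.544 CPM between and 0.249 CPM in the high band. The low band was the more cytoplasmic of the outer bands: the median log2 difference of chromatin over cytoplasm in untreated DIS3-AID cells was -3.57 in the low band and -2.21 in the high band. The levels in that group enter the response as well, and in auxin-treated control cells, which do not, the medians were -3.40 and -1.83.

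The polyA level relative to total RNA also ran with the response. In auxin-treated control cells the median ratio of polyA CPM to total CPM was 0.766 in the low band, 0.347 between and 0.0866 in the high band. The polyA tables count another set of features, 60095 against 59607, so the ratio orders loci and is no fraction of polyadenylated molecules. At a ratio of 1 or more were 201 members, of which 128 (63.7%) were in the low band. Below 0.2 were 577, of which 414 (71.8%) were in the high band and 108 in the low one. Of the 276 low-band members, 128 were thus at a ratio of 1 or more, 108 below 0.2 and 40 (14.5%) between.

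**Figure D5:**
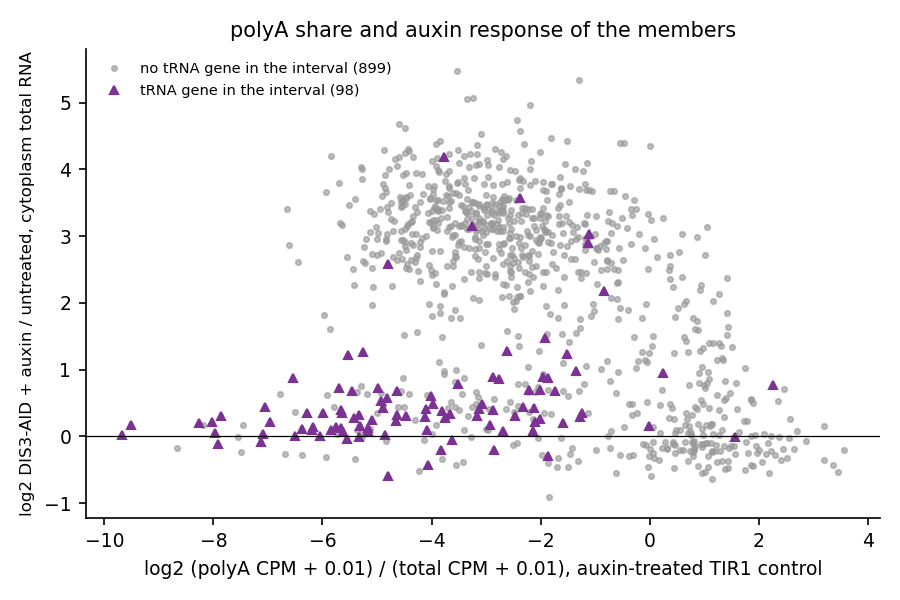
Log2 change with auxin in DIS3-AID cytoplasm total RNA (vertical axis) against log2 of polyA over total CPM in auxin-treated control cells, each with 0.01 CPM added (horizontal axis), for the 997 members. The 98 members with a tRNA gene in their interval (triangles) lie mostly near 0 on the vertical axis at low polyA, and the members at a ratio above 1 lie mostly near 0 as well.

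Of the 997 members, 98 (9.83%) had a RefSeq tRNA gene (GRCh38.p14) in their interval, against 5 of the 436 other loci (1.15%). Intervals are wide, so a tRNA gene there may not be the locus. Of these 98, 67 were in the low band and 7 in the high band, with a median log2 change of 0.31 against 2.66 for the other 899 members, and 76 had a polyA ratio below 0.2. They made up 58 of the 108 members that combined the low band with low polyA, and 1 of the 128 that combined it with a ratio of 1 or more. Chromosome 6 held 38 of the 98 and 76 members in all, whose median log2 change was 0.39. XLOC_011534, on that chromosome between AL031229.1 and LINC01012 with 6 tRNA genes in the interval (chr6:27652602-27694035), had 27.3, 25.6 and 26.5 CPM in untreated DIS3-AID cytoplasm and between 28.2 and 30.3 CPM with auxin, which did not overlap, with a log2 change of 0.04 (adjusted p = 0.670). On untreated DIS3-AID chromatin it had 0.449, 0.484 and 0.559 CPM, and in polyA RNA 0.104 CPM in its highest library. XLOC_011878, before PRSS16 and with 5 tRNA genes in the interval (chr6:27211244-27247701), had 50.4, 45.9 and 41.2 CPM and with auxin 54.2, 51.5 and 43.7 CPM, which overlapped.

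A further 6 members stood beside an annotated RNA polymerase III gene and were singled out after their rows were seen. XLOC_004027, before RPPH1, the RNA of RNase P (chr14:20343048-20343075), had 3.70, 3.94 and 5.44 CPM in untreated DIS3-AID cytoplasm and between 3.82 and 4.04 CPM with auxin, which overlapped. It had no count on untreated chromatin of either line, which allows up to 0.00993 CPM in the control and 0.0137 CPM in the DIS3-AID group, and 4 of the 12 polyA libraries held any. XLOC_004096, beside RN7SL2, a signal recognition particle RNA (chr14:49862550-49863072), had 6.53, 6.80 and 12.1 CPM and with auxin 8.66, 8.93 and 9.49 CPM, so its untreated replicate 3 was above all treated ones. XLOC_012009, beside RN7SK (chr6:52995621-53001279), had 4.11, 3.86 and 5.84 CPM and then 3.90, 4.10 and 5.06 CPM, and none of the 12 polyA libraries held a count. XLOC_013468, within the span of RMRP, the RNA of RNase MRP (chr9:35657751-35657754), had 1.97, 1.37 and 2.24 CPM and then 1.86, 2.15 and 1.96 CPM. Neither these nor XLOC_004095, beside RN7SL3, passed the test in cytoplasm (adjusted p between 0.167 and 0.986). XLOC_012514, before RNY4, a Y RNA gene, had a log2 change of 0.98 (adjusted p = 0.0226). That call was lost under 3 of 12 alternatives, each with 1 library left out. A locus beside such an abundant RNA may hold reads of its ends.

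The most abundant members did not pass the test with auxin in cytoplasm. XLOC_011776 had 660, 597 and 594 CPM in untreated DIS3-AID cytoplasm and 660, 631 and 678 CPM with auxin (log2 change -0.01, SE 0.0497, adjusted p = 0.897). In polyA RNA it had 1729, 1667 and 1597 CPM and then 1796, 1697 and 1819 CPM. On untreated DIS3-AID chromatin its replicate 1 had 281 CPM and the other two 445 and 413 CPM. XLOC_005493, on chromosome 16 between AC106785.2 and HMGN2P41 (chr16:35785569-35802869), had 44.0, 45.5 and 44.8 CPM in untreated DIS3-AID cytoplasm and 41.7, 42.4 and 46.2 CPM with auxin, which overlapped (log2 change -0.14, adjusted p = 0.0552). Its polyA level was 94.3, 103 and 96.3 CPM and its chromatin level 0.718, 0.598 and 0.661 CPM in the untreated line. Both had polyA levels above their total RNA levels, the reverse of XLOC_011534 and XLOC_011878.

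The strength of the cytoplasmic position ran against the response in cytoplasm total RNA. The members were split into 4 equal parts by chromatin over cytoplasm in auxin-treated control cells. The most cytoplasmic part had a median log2 change of 0.48 in cytoplasm total RNA with 129 of 250 members that rose, and the least cytoplasmic part 3.04 with 232 of 249. On chromatin these medians were 0.998 (62 members tested) and 1.09 (214 tested), and in polyA RNA 0.122 (114 tested) and 2.49 (132 tested). The chromatin medians cannot decide whether the response there ran with position. The filter on low counts left out most of the most cytoplasmic part. Of the 577 members tested on chromatin, 137 passed only through the auxin-treated DIS3-AID libraries, with a median of 1.63 against 0.991 in the others. Members of 1 interval resembled each other in part: in 60 intervals with exactly 2 members the log2 changes had a Spearman rho of 0.55, and 168 members shared an interval with another.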

How the data were processed

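Total RNA of cytoplasm and chromatin (TruSeq Stranded Total RNA) and cytoplasm polyA RNA (Illumina Stranded mRNA Prep) were sequenced in 36 libraries. The deposited values are whole-number counts per feature, not normalized by the authors. The submitters' processing notes name STAR 2.7.3a, Cufflinks 2.2.1, featureCounts 2.0.0 and hg38. The strand and overlap settings of the counting are not given in the sources used here.

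The members and gene lists were chosen with earlier results of these data known. Levels are CPM over library totals. Differences were fitted on all features with edgeR 4.0.16 (limma 3.58.1, R 4.3.3), using TMM scaling, a low-count filter (filterByExpr, minimum count 10), robust quasi-likelihood dispersion, all 4 groups of a data set in 1 fit, Benjamini-Hochberg adjustment over all features and a threshold of 0.05. Comparisons of fractions, or of polyA with total RNA, used joint fits of both data sets. Comparisons with untreated control total RNA were not tested, since those libraries chose the members. A group with all counts at 0 was set to 3 counts over the group for a lower bound, and ratios from 1 to 3 counts carry an exact 95% interval for counting error only. The named loci were, among calls whose groups do not overlap, the 6 largest rises and falls with auxin in cytoplasm and the 4 largest on chromatin and in polyA RNA, then the 4 most abundant, the 4 with the highest cytoplasm to chromatin ratio at 1 CPM or more, the 3 loci on each side of the rule's threshold, and the 3 most positive and negative differences of response. Loci beside RNA polymerase III genes were added after their rows were seen.

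The fits were tried on simulated counts with known changes. Of features changed by a log2 of 1 they recovered, by comparison, between 61% (response on chromatin minus cytoplasm) and 91% (auxin in DIS3-AID cytoplasm). Of those changed by 2 they recovered between 87% (polyA minus total response) and 99% (auxin in DIS3-AID cytoplasm). Each rate rests on 100 changed features among all those tested. No separate rate is given for features as scarce as most members, so the rates may not hold for them. Replicates with the same number deviated together only between the total and polyA library of 1 group and number (6 pairs, correlations 0.190 to 0.384), and no label says what the numbers share. Alternatives were DESeq2 1.42.0, DESeq2 size factors, library totals alone, no filter, a replicate block, a fit of only the groups compared, members chosen on TMM-scaled CPM, and each library left out in turn. A block of the total and polyA library of 1 group and number, and counts over members that pass the filter without the treated libraries, were added after seeing the data. Locus sequences and coordinates were not analysed here.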

Additional observations from a re-analysis of the deposited data

Results flagged for a closer look

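The response of DIS3-AID cells to auxin differed between data sets by interaction tests in edgeR. On chromatin minus cytoplasm the difference was positive for 64 members and negative for 370. Among the named members it was 2.08 for XLOC_003741, 2.42 for XLOC_010847 and 2.45 for XLOC_010268, and -5.24 for XLOC_010678, -3.92 for XLOC_013263 and -3.56 for XLOC_002317. XLOC_010678 and XLOC_013263 passed the cytoplasm filter only through the auxin-treated DIS3-AID libraries. XLOC_003741 passed the chromatin filter only in that way, so the values of all of these are descriptions. The call of XLOC_010847 was lost under 6 of 17 alternatives and that of XLOC_010268 under 4, library totals among them in both cases.

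For polyA minus total RNA the difference was positive for 25 members and negative for 46. The negative values were -4.40 for XLOC_002317, -2.55 for XLOC_009556 and -2.55 for XLOC_012101, and each lost its call under 1 of 18 alternatives. None of these loci passed the filter of the polyA set by itself. The fitted positive values, 6.42 for XLOC_012239, 5.51 for XLOC_012566 and 5.36 for XLOC_008020, rest on untreated polyA groups with no count, passed the polyA filter only through the treated libraries and are no bounds. The calls of XLOC_012566 and XLOC_008020 were lost under 14 and 3 alternatives.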

How the results depend on the processing

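Of 344 counts of called members under an alternative, 296 were within 1.5 times the count reported and 48 were not. Library totals alone gave 2 members that fell in DIS3-AID cytoplasm, 1 that fell in polyA RNA, 14 lower between the auxin-treated lines in cytoplasm, 6, 5 and 2 higher on chromatin in auxin-treated control, untreated DIS3-AID and auxin-treated DIS3-AID cells, and 14 and 12 positive differences of response (chromatin minus cytoplasm, polyA minus total). DESeq2 gave 7 falls in cytoplasm, 1 in polyA RNA, 1 rise in control polyA RNA and 10 positive polyA minus total differences, and DESeq2 size factors 13 of the last. Without the filter, 424 members rose and 5 fell in polyA RNA, 2 rose in control polyA RNA, 497 were higher between the lines there and 12 polyA minus total differences were positive. Only 80 rises in polyA RNA were of members that pass the filter without the treated libraries. Fitting only the groups compared gave 4 falls in cytoplasm. Members chosen on TMM-scaled CPM gave 5, 3 and 6 higher on chromatin in the 3 groups and 73 negative polyA minus total differences. With a replicate block 1 member rose in control polyA RNA and 44 polyA minus total differences were positive, and with total and polyA libraries of 1 group and number paired as the block, 54 were. The block moved no other count by over 1.5 times.

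Leaving out 1 library gave 3 to 11 falls in cytoplasm, 0 to 4 in polyA RNA, 13 to 24 members lower between the lines in cytoplasm, 0 to 1 higher on chromatin in auxin-treated DIS3-AID cells, 36 to 75 positive chromatin minus cytoplasm differences and 6 to 39 positive polyA minus total ones. The log2 change of XLOC_004096 ran from -0.16 to 0.37 and passed with the opposite sign without untreated DIS3-AID replicate 3 (0.37, edgeR adjusted p = 0.00186). The cause was not tested. Depth limits the scarce members: 420 could not be tested on chromatin and 534 not in polyA RNA.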
